A study of Homo sapiens with 16 samples.

Results

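The oxidative phosphorylation genes described here are the protein-coding genes of the respiratory complexes, ATP synthase and their assembly factors, chosen by symbol. They are the genes named NDUF, SDHA to SDHD, UQCR, COX followed by a digit, ATP5, and the protein-coding genes of mitochondrial DNA (MT-ND, MT-CO, MT-ATP and MT-CYB) that were present in all 4 of the authors' deposited tables. There were 113 such genes among the 19344 genes in all 4 tables, of which 100 are nuclear and 13 mitochondrial (MT-). The symbol rule itself used no measured value other than presence in the tables, but the set was chosen with earlier results of these data known. The readthrough gene ATP5MF-PTCD1 fits by name but was in 2 of the authors' deposited tables (base mean 3.93 and 3.28) and was not counted.

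Oxidative phosphorylation couples the oxidation of NADH and succinate in the mitochondrial inner membrane to the making of ATP. Complexes I, III and IV pump protons while electrons pass from NADH through ubiquinone and cytochrome c to oxygen, complex II feeds electrons from succinate, and ATP synthase uses the proton gradient. Most subunits are encoded in the nucleus, made in the cytosol and imported, while a small set of core subunits is encoded by mitochondrial DNA, whose genes are read as long polycistronic transcripts and cut at the tRNAs between them.

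Polyadenylated RNA was sequenced from U2OS, an established human osteosarcoma line. Cells received either a control siRNA (siControl) or one against the transcription factor RFX7 (siRFX7). They were then exposed for 24 h to Nutlin-3a at 10 µM, an MDM2 inhibitor that activates p53, or to the solvent DMSO. Each of the 4 groups (siControl with DMSO, siControl with Nutlin-3a, siRFX7 with DMSO, siRFX7 with Nutlin-3a) had 4 libraries. Nothing in the labels says that these are separate cultures, so p-values measure the spread between these samples, which may be technical. All values come from 4 tables of the authors' own 2-group comparisons, which give a base mean (normalised counts averaged over both groups), a log2 fold change with its standard error (SE) and an adjusted p. Each group enters 2 of the 4 comparisons, so comparisons that share a group are not independent. Values of single libraries were not analysed here. A gene is called below when its deposited adjusted p, from DESeq2's Wald test with Benjamini-Hochberg adjustment, is under 0.05.

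In the authors' deposited tables, the log2 fold change of RFX7 itself with siRFX7 was -2.42 ± 0.07 (SE) under DMSO and -2.37 ± 0.07 under Nutlin-3a. With Nutlin-3a, the p53 targets CDKN1A and MDM2 rose by 3.24 and 2.89 in siControl and by 2.98 and 2.76 in siRFX7, per the authors' deposited tables. Of the 8 mesenchymal markers listed for the line, 7 were in all 4 tables and TWIST1 in none. Of the other types, CD3E and KRT5 were in no table, and PTPRC, CD14 and PECAM1 were in 1 table with base means of at most 5.21. The epithelial genes EPCAM and CDH1 were present at low levels and higher with siRFX7: in the authors' deposited tables CDH1 was at 0.85 ± 0.13 under DMSO and 1.10 ± 0.12 under Nutlin-3a. KRT8 had base means from 19286 to 24067 and was higher with Nutlin-3a in both siRNAs, and COL1A2, VWF and CDH5 had base means of at most 17.8, per the authors' deposited tables. The part of these genes in the results below was not tested.

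As a description of level, the 13 MT- genes stood far above the nuclear ones per length. In siControl with DMSO, the level implied by the base mean and fold change of the authors' deposited table had a median of 110189 normalised counts per kb of exon over the MT- genes and 741 over the nuclear genes. Exon length was the union over all annotated transcripts of a gene, such as 14.16 kb for SDHC and 1.378 kb for MT-ND4. This lowers the value of genes with many annotated exons, so the gap and the rankings below depend in part on annotation. MT-ND4, a complex I core subunit, was the highest at 264042 per kb in the authors' deposited table, and MT-ND6, the only member on the other mitochondrial strand, was the lowest of the 13 at 5247. Among nuclear genes ATP5F1B, the catalytic beta subunit of ATP synthase, was highest at 8415 per kb, and COX6B2, a testis isoform of a complex IV subunit, lowest at 3.55, per the authors' deposited table. COX8A led complex IV at 7248 per kb, NDUFS5 complex I at 6504, UQCR10 complex III at 5124 and SDHB complex II at 1091 in the same of the authors' deposited tables. Assembly factors had lower medians than subunits. For complex I the median was 205 per kb, against 385 for core and 641 for accessory subunits. For complex IV it was 229.7, against 1121 for its subunits. The medians were 608 for complex II, 1221 for complex III and 1009 for ATP synthase. In the authors' deposited table of Nutlin-3a in siControl, the base mean was 48.9 for NDUFV2 and 8.42 for NDUFA7, and both overlap another gene on the same strand in GENCODE 29, so their counts are uncertain. In all, 22 of the 100 nuclear genes overlap a protein-coding gene on the same strand, among them COX16, COX17, COX6A1 and NDUFB8. By symbol, 40 nuclear genes have a pseudogene copy in the tables, among them ATP5PB with 5 and ATP5PD with 4. Reads shared with such genes are uncertain.

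**Figure D1:**
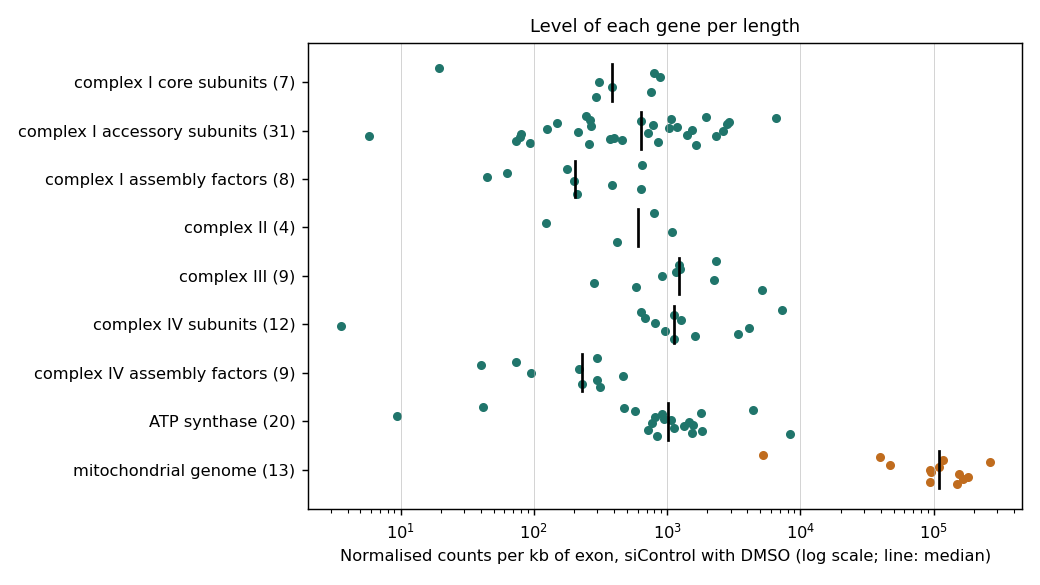
Level of each gene in siControl with DMSO, in normalised counts per kb of exon on a log scale, by role (number of genes in brackets, black line the median). Exon length is the union over all annotated transcripts. The 13 MT- genes lie between 5247 and 264042 per kb, and the nuclear genes between 3.55 and 8415.

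Of the 100 nuclear genes, 82 matched an entry in RefSeq's promoter table (GRCh38.p14; 250 bases before to 50 after the start). The promoters below belong to some of the 12 nuclear genes called with Nutlin-3a under both siRNAs. They are COX17 (copper chaperone of complex IV) and SDHB (iron-sulfur subunit of complex II), which were lower, and NDUFAF8 (complex I assembly factor), which was higher. Each is 5′ to 3′ on the gene's strand: COX17 chr3:119677357-119677656, - strand; SDHB chr1:17053983-17054282, - strand; NDUFAF8 chr17:81239061-81239360, + strand. Capitals mark matches, on either strand, to GCATGCGC (a form of the site of NRF1, nuclear respiratory factor 1), CCGGAAG (ETS factors, among them GABP) and AAGATGGCG (YY1). COX17 and NDUFAF8 have more than 1 entry, and the one with the most matches is shown, the first such entry for NDUFAF8. The promoters shown do not stand for all 12 genes. Of the others, NDUFAF3 and UQCRFS1 (lower) and NDUFV3 and COX7A2 (higher) had an entry with no marked match. NDUFA6 and NDUFS7 (lower) had GCATGCGC and AAGATGGCG, and ATP5PD (higher) had CCGGAAG. ATP5F1B and NDUFA4 had no entry.
COX17 promoter: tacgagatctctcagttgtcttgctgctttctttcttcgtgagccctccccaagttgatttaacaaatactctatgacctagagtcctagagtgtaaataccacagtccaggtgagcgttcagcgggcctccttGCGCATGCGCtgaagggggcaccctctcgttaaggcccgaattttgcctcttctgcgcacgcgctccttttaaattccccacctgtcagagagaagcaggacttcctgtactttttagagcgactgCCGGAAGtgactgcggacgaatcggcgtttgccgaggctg
SDHB promoter: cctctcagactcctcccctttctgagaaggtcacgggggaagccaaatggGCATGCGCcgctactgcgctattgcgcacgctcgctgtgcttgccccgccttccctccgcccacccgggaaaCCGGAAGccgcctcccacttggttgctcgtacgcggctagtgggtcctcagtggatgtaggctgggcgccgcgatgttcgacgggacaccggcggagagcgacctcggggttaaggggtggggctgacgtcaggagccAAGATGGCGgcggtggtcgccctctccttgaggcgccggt
NDUFAF8 promoter: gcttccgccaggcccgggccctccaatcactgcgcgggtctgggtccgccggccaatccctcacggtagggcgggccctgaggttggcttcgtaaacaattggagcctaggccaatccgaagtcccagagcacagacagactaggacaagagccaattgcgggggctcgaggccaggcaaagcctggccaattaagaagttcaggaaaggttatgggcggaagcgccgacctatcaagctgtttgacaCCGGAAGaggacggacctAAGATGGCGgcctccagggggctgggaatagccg

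In all, 11 motif forms of 6 families were searched on both strands of these windows, and the 3 marked in capitals were chosen with the shares of all 11 known. GCATGCGC was in 18 of the 82 nuclear members (22%) and in 3.68% of the 27305 genes with an entry. CCGGAAG was in 32.9% of members and 12.2% of genes, its longer form CCGGAAGT in 18.3% and 4.95%, and AAGATGGCG in 13.4% and 2.14%. The 2 longer forms of the NRF1 site were in 8.54% and 6.1% of members, against 1.52% and 0.912% of genes, and the longer YY1 form in 7.32% against 1.04%. The other 3 families were the X-box half-site of RFX factors, the cyclic AMP response element and the E-box. The RFX half-site GTTGCC was in 9 members (11%) and 14.6% of genes, and a longer X-box form was in 0 members and 0.732% of genes. TGACGTCA, the cyclic AMP response element, was in 6.1% of members and 2.25% of genes, and the E-box CACGTG in 11% and 8.77%. GCATGCGC lies within the longer NRF1 forms, and the longer forms of the other families likewise contain their short form. These matches are a description of letters in 1 window, with no test.

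With Nutlin-3a in siControl, the nuclear genes were split between directions and most did not pass the test. Of the 100, the authors' deposited table called 28, 13 higher and 15 lower, where 37.9% of all genes were called, 18.3% higher and 19.6% lower. Their median log2 fold change was -0.0015, against -0.03 over protein-coding genes whose base mean reached 100, of which 58.3% were called. The split depends on centring: with the fold changes recentred on that protein-coding median, 18 were higher and 10 lower, and over all 113 genes the split moved from 13 higher and 15 lower to 19 and 10. In siRFX7, the authors' deposited table called 26 of 100 nuclear genes, 12 higher and 14 lower, against 39.1% of all genes, 18.7% higher and 20.3% lower. Recentred, this became 17 higher and 10 lower, and over all 113 genes 23 higher and 14 lower became 28 and 10.

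The largest rise among called nuclear genes was that of NDUFAF8 (ENSG00000224877; chr17:81239239-81241281 in GRCh38, GENCODE 29, plus strand). The authors' deposited tables imply a level of 888.2 normalised counts with DMSO and 1390 with Nutlin-3a in siControl, and 667.1 and 971.7 in siRFX7. The log2 fold changes there were 0.65 ± 0.06 (SE; DESeq2 adjusted p = 3.2e-22) and 0.54 ± 0.07 (4.1e-13). Levels here and below were normalised within each 2-group comparison, so levels from different comparisons cannot be set against each other. Compared directly under DMSO, NDUFAF8 was at -0.01 ± 0.07 with siRFX7 and not called. Per the authors' deposited tables, NDUFV3, a small accessory subunit of complex I, rose with Nutlin-3a by 0.33 ± 0.05 and 0.38 ± 0.06. ATP5PD, a stalk subunit of ATP synthase, rose by 0.17 ± 0.05 and 0.28 ± 0.06, COX7A2 (complex IV) by 0.13 ± 0.05 and 0.17 ± 0.07, and NDUFA4 by 0.19 ± 0.06 and 0.18 ± 0.05, per the authors' deposited tables. These 5 were the nuclear genes called higher under both siRNAs.

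Called lower under both were 7: COX17, SDHB, ATP5F1B, NDUFA6, NDUFAF3, NDUFS7 and UQCRFS1. Per the authors' deposited tables, COX17 fell by 0.27 ± 0.08 on the log2 scale in siControl, from 474.6 to 393.6 normalised counts, and fell by 0.31 ± 0.10 in siRFX7, from 307.7 to 248.5. These pairs of levels were normalised separately, so they do not compare siRFX7 with siControl. COX17 overlaps POPDC2 on the same strand, so its reads are uncertain. SDHB fell by 0.22 ± 0.05 and 0.18 ± 0.05, and ATP5F1B by 0.17 ± 0.04 and 0.23 ± 0.03, per the authors' deposited tables. UQCRFS1, the Rieske iron-sulfur protein of complex III, fell by 0.13 ± 0.04 and 0.16 ± 0.05 in the authors' deposited tables. All 12 nuclear genes called under both siRNAs had the same sign, out of 42 called under either. Sign agreement was not counted over all genes, so it is not shown to be particular to these genes. The comparisons in siControl and in siRFX7 share no library. Pearson's r of their fold changes across the 100 genes was 0.79, which describes genes of the same libraries and not replicates.

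**Figure D2:**
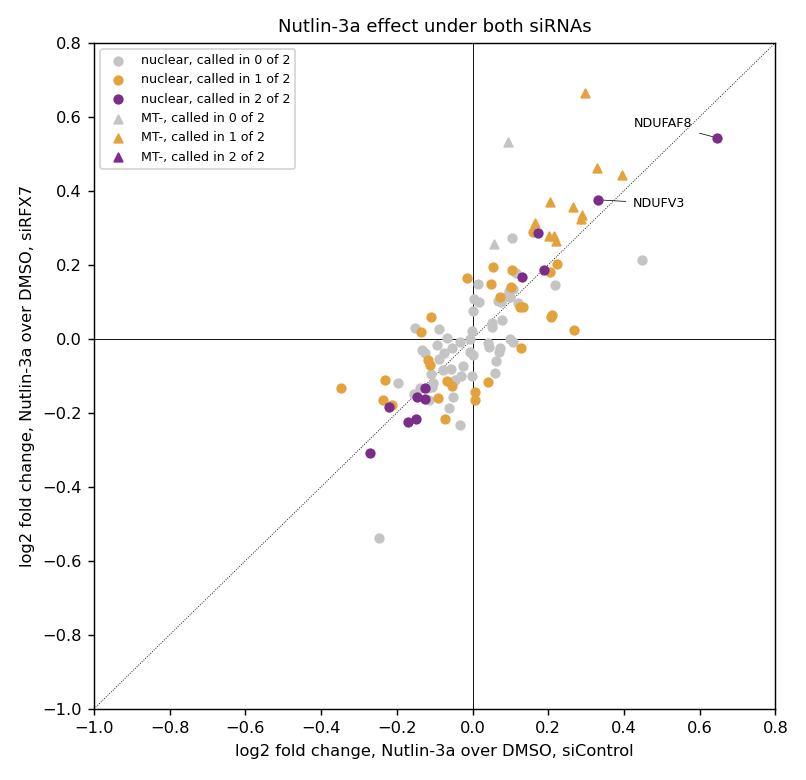
Log2 fold change of each gene with Nutlin-3a in siControl (x) and in siRFX7 (y), from the authors' deposited tables; circles are nuclear and triangles MT- genes, coloured by the number of the 2 comparisons that call them, and the dotted line marks equal values. NDUFAF8 at 0.65 and 0.54 and NDUFV3 at 0.33 and 0.38 lie highest among the nuclear genes called in both.

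Assembly factors of complexes I and IV were called in both directions with Nutlin-3a. For siControl, the authors' deposited table had 3 of 8 complex I assembly factors lower (NDUFAF3, NDUFAF4, NDUFAF5) and 1 higher (NDUFAF8), and 3 of 9 complex IV assembly factors lower (COX11, COX16, COX17) and 1 higher (COX14), where 18.3% of all genes were higher and 19.6% lower. For siRFX7, 2 of 8 complex I assembly factors were higher (NDUFAF1, NDUFAF8) and 1 lower (NDUFAF3), and 2 of 9 complex IV assembly factors were higher (COX15, COX20) and 2 lower (COX17, COX19), per the authors' deposited table, where 18.7% of all genes were higher and 20.3% lower. COX16 had the lowest value of the called nuclear genes in siControl at -0.35 ± 0.12 in the authors' deposited table, with a base mean of 159.5, and was -0.13 ± 0.13 and not called in siRFX7.

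Per the authors' deposited table of siControl, NDUFAF4 and NDUFAF5 were at -0.24 ± 0.08 and -0.23 ± 0.09, and COX14 and COX6A1 were higher at 0.22 ± 0.09 and 0.21 ± 0.07. None of these 4 was called in siRFX7, where DESeq2 gave -0.17 ± 0.09, -0.11 ± 0.11, 0.20 ± 0.11 and 0.06 ± 0.08 in the authors' deposited table. NDUFAF1 and SDHC were called higher in siRFX7, at 0.29 ± 0.11 and 0.19 ± 0.06, and COX19 lower at -0.22 ± 0.09, in the authors' deposited table. In siControl these 3 were not called, at 0.16 ± 0.08, 0.05 ± 0.04 and -0.07 ± 0.08, per the authors' deposited table. COX19 overlaps ADAP1 on the same strand, so its reads are uncertain. NDUFB1, a small accessory subunit of complex I, was called higher with Nutlin-3a in siControl at 0.27 ± 0.07 and was 0.02 ± 0.09 and not called in siRFX7, per the authors' deposited tables. None of these genes had a called difference of the responses (tested below over all genes), so calls in 1 siRNA only are not shown to differ.

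Of the 12 genes counted by symbol as complex IV subunits, COX7A2L among them, 2 were higher (COX6A1 and COX7A2) and 0 lower in siControl. In siRFX7, 3 were higher and 0 lower, per the authors' deposited tables. At an unadjusted p under 0.05 by DESeq2 there were 3 and 5. Of the 31 genes counted by symbol as accessory subunits of complex I, 5 were higher and 1 lower in siControl. In siRFX7, 2 were higher and 2 lower, per the authors' deposited tables. The 31 include NDUFA4, a complex IV subunit despite its symbol, which was among those called higher under both siRNAs. Over all genes, 18.3% were higher and 19.6% lower in siControl, and 18.7% and 20.3% in siRFX7.

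Of the 18 genes with GCATGCGC in the promoter window, 1 was higher and 8 lower with Nutlin-3a in siControl in the authors' deposited table, with a median of -0.11. Of the 64 without it, 10 were higher and 5 lower, with a median of -0.0040, per the authors' deposited table. In siRFX7 the same counts were 0 higher and 4 lower of 18 (median -0.05) and 9 higher and 8 lower of 64 (median -0.03), per the authors' deposited table. Over all genes, 18.3% were higher and 19.6% lower in siControl, and 18.7% and 20.3% in siRFX7. For CCGGAAG the counts were 5 higher and 4 lower of 27 in siControl. For AAGATGGCG they were 1 higher and 4 lower of 11 (median -0.11), against 10 and 9 of 71 without it (median -0.0064). In siRFX7 they were 1 higher and 3 lower of 11 for AAGATGGCG (median -0.10), and 8 and 9 of 71 without it (median -0.03). For GTTGCC the counts in siControl were 2 higher and 1 lower of 9, for TGACGTCA 1 and 1 of 5, and for CACGTG 1 and 2 of 9. No test was made of any of these, and the NRF1 motif was singled out after its values were seen. NRF1 itself was lower with Nutlin-3a, with log2 fold changes in the authors' deposited tables of -0.57 ± 0.07 (siControl) and -0.65 ± 0.07 (siRFX7).

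**Figure D3:**
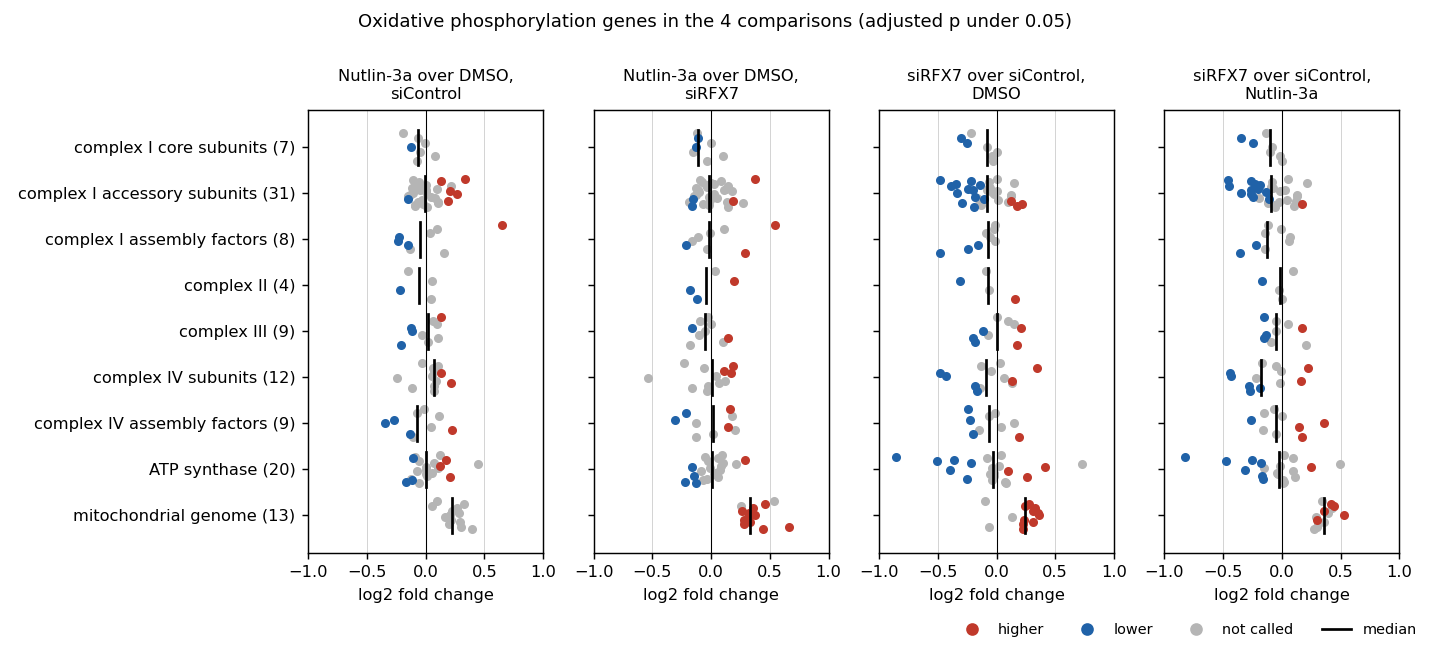
Log2 fold change of each of the 113 genes in the 4 comparisons, by role (number of genes in brackets), from the authors' deposited tables; red and blue points are called higher and lower at an adjusted p under 0.05, grey points are not called, and black lines are medians. The MT- genes have medians of 0.22, 0.33, 0.24 and 0.35 from left to right, and the nuclear roles lie near 0 with more blue points in the siRFX7 comparisons.

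With siRFX7, more nuclear genes were called lower than higher. Under DMSO, the authors' deposited table called 46 of 100, 12 higher and 34 lower, where 37.4% of all genes were called, 19.9% higher and 17.5% lower. Under Nutlin-3a, the authors' deposited table called 41 of 100, 8 higher and 33 lower, where 32.6% of all genes were called, 17.2% higher and 15.4% lower. The medians were -0.06 and -0.08, against 0.02 and 0.02 over protein-coding genes whose base mean reached 100, of which 50.4% and 46.1% were called. Most changes were small: 20 and 19 of the 100 reached a size of 0.25 on the log2 scale. The implied levels of the nuclear genes summed to 0.695% of the total in siControl and 0.641% in siRFX7 under DMSO in the authors' deposited table.

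ATP synthase held the largest fall. ATP5PO (ENSG00000241837; chr21:33903453-33915980 in GRCh38, GENCODE 29, minus strand), the subunit of its peripheral stalk known as OSCP, had implied levels of 1429 normalised counts in siControl and 789.7 in siRFX7 under DMSO, per the authors' deposited tables, and of 1265 and 716.4 under Nutlin-3a. The authors' deposited tables give log2 fold changes of -0.86 ± 0.08 (SE; DESeq2 adjusted p = 4.3e-27) and -0.82 ± 0.14 (2.4e-08). Another gene, AP000311.1, overlaps ATP5PO on the same strand in GENCODE 29, so reads shared by them are uncertain. ATP5PB, a further stalk subunit, went from 5488 to 3854 under DMSO and from 4973 to 3572 under Nutlin-3a, with fold changes of -0.51 ± 0.05 and -0.48 ± 0.04, per the authors' deposited tables. ATP5MD was lower, at -0.40 ± 0.07 and -0.32 ± 0.07, and ATP5PD by -0.36 ± 0.05 and -0.25 ± 0.05, in the authors' deposited tables. ATP5F1A and the catalytic subunit ATP5F1B were not called in either: 0.08 ± 0.04 and 0.01 ± 0.04, and 0.07 ± 0.03 and 0.02 ± 0.04, per the authors' deposited tables. ATP5MF went the other way in the authors' deposited tables, at 0.41 ± 0.05 and 0.25 ± 0.05. It overlaps PTCD1 and the readthrough gene named above on the same strand, so its reads are uncertain. ATP5F1E, the epsilon subunit of the central stalk, was called higher under DMSO at 0.26 ± 0.05 and was 0.11 ± 0.05 and not called under Nutlin-3a, per the authors' deposited tables.

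In complex I, NDUFS6 and NDUFV1 were lower under both treatments. NDUFS6 was at -0.48 ± 0.06 and -0.46 ± 0.07, and NDUFV1, the flavoprotein that takes electrons from NADH, at -0.30 ± 0.05 and -0.35 ± 0.05, in the authors' deposited tables. NDUFS8, which carries iron-sulfur clusters, was at -0.26 ± 0.05 and -0.25 ± 0.04 in the authors' deposited tables, while the core subunits NDUFS1, NDUFS3, NDUFS7 and NDUFV2 were not called. Of the 31 genes counted by symbol as accessory subunits, 3 rose, NDUFA4 among them, and 12 fell under DMSO. Under Nutlin-3a 1 rose and 12 fell, per the authors' deposited tables. Over all genes, 19.9% were higher and 17.5% lower under DMSO, and 17.2% and 15.4% under Nutlin-3a. NDUFAF1, an assembly factor, was at -0.48 ± 0.10 and -0.35 ± 0.10, and NDUFB8, a membrane-arm subunit, at -0.39 ± 0.14 and -0.45 ± 0.12, in the authors' deposited tables. NDUFA12 was higher, by 0.22 ± 0.05 and 0.17 ± 0.06.

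Complex IV changed in both directions. COX7A2 was at -0.48 ± 0.06 and -0.44 ± 0.06 and COX6C at -0.43 ± 0.15 and -0.43 ± 0.07 in the authors' deposited tables, and COX4I1, the common isoform of subunit IV, at -0.17 ± 0.05 and -0.27 ± 0.05. COX7B was higher, from 3058 to 3876 normalised counts under DMSO and from 3007 to 3505 under Nutlin-3a, with fold changes of 0.34 ± 0.04 and 0.22 ± 0.06, in the authors' deposited tables. COX6B1 was higher, at 0.13 ± 0.04 and 0.16 ± 0.06, per the authors' deposited tables, and its testis isoform COX6B2, with a base mean of 12.5, was not called anywhere. COX10, which acts in an earlier step of making heme A for the enzyme, was higher by 0.19 ± 0.06 and 0.17 ± 0.06. The copper chaperone COX17 was lower, at -0.23 ± 0.08 and -0.27 ± 0.10, per the authors' deposited tables. COX16 was called higher under Nutlin-3a at 0.36 ± 0.14 in the authors' deposited table, and was 0.14 ± 0.11 and not called under DMSO. This call and its lower value with Nutlin-3a in siControl both use the siControl Nutlin-3a libraries, so they are not independent results.

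In complexes II and III, SDHC, a membrane anchor, was at -0.31 ± 0.05 and -0.17 ± 0.05 in the authors' deposited tables, UQCRB at -0.20 ± 0.05 and -0.16 ± 0.06, and UQCRFS1 higher at 0.21 ± 0.04 and 0.17 ± 0.05. SDHA, the flavoprotein of complex II, was higher under DMSO (0.16 ± 0.04) and at -0.00061 ± 0.04 under Nutlin-3a, per the authors' deposited tables. UQCRH and UQCRHL have near-identical sequences, so their reads are uncertain, and neither was called in any of the authors' deposited tables.

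**Figure D4:**
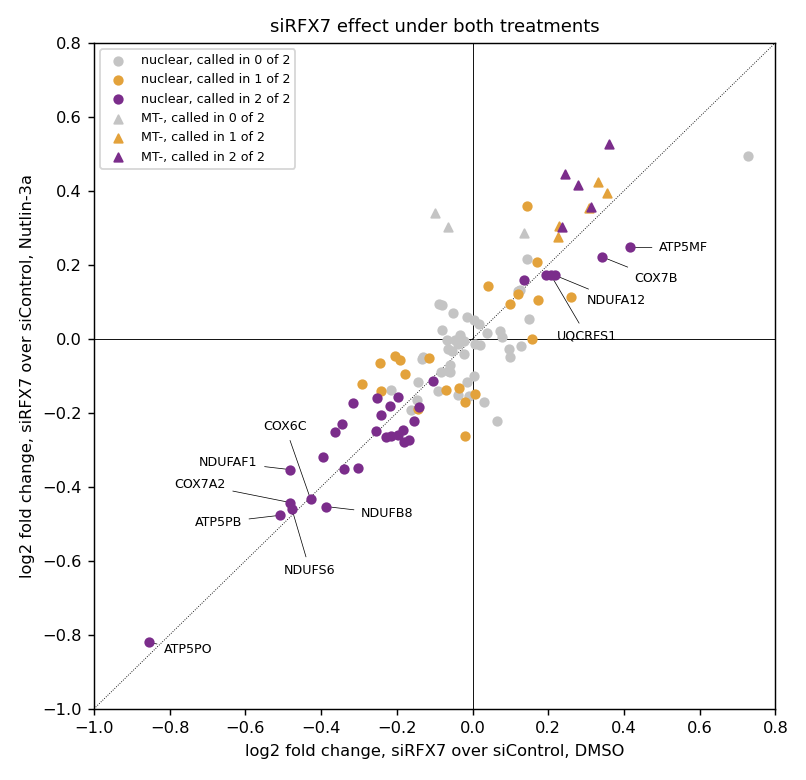
Log2 fold change of each gene with siRFX7 under DMSO (x) and under Nutlin-3a (y), from the authors' deposited tables; circles are nuclear and triangles MT- genes, coloured by the number of the 2 comparisons that call them, and the dotted line marks equal values. ATP5PO stands lowest at -0.86 and -0.82, ATP5MF highest among nuclear genes called in both at 0.41 and 0.25, and the MT- genes called in both lie above 0 on both axes.

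Across the treatments, 33 nuclear genes were called in both siRFX7 comparisons, which share no library, and all 33 had the same sign, 27 lower and 6 higher, out of 54 called in either. Sign agreement was not counted over all genes, so it is not shown to be particular to these genes. Pearson's r of the fold changes over the 100 genes was 0.887, as a description. Of the 100, 29 were called in none of the authors' deposited tables, among them COX8A. By the RFX half-site GTTGCC, 1 was higher and 4 lower of 9 genes with it under DMSO and 0 higher and 5 lower of 9 under Nutlin-3a, per the authors' deposited tables. Without it the counts were 8 higher and 22 lower of 73, and 7 higher and 21 lower of 73, and no test was made. Over all genes, 19.9% were higher and 17.5% lower under DMSO, and 17.2% and 15.4% under Nutlin-3a.

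The letters of 2 short 3′ UTR sequences, picked in earlier work on these same data for genes that moved with siRFX7, were looked for in GENCODE 29 transcripts. The heptamer GTATCTA was in 6 of the 100 nuclear genes (6%) and 8.75% of 11285 protein-coding genes with a 3′ UTR, and the hexamer GACGTA in 2 (2%) and 5.3%. Of the 27 nuclear genes lower under both treatments, 2 carried the heptamer. The windows below are shown for those 2 and for the carrier that was higher, with the heptamer in capitals; ATP5PB and NDUFB5 were lower, UQCRFS1 higher, under both treatments.
ATP5PB 3′ UTR: atGTATCTAtcccaattga
NDUFB5 3′ UTR: cttattccttGTATCTAaatgtattct
UQCRFS1 3′ UTR: agaaacagtaGTATCTAggtattcctt

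The MT- genes had positive medians in all 4 comparisons, and no MT- gene was called lower in any. With Nutlin-3a in siControl, all 13 estimates were positive (0.06 to 0.39, median 0.22) in the authors' deposited table. None of the 13 was called by DESeq2, and 2 had an unadjusted p under 0.05. With Nutlin-3a in siRFX7, 11 were called higher and 0 lower in the authors' deposited table (0.26 to 0.66, median 0.33). With siRFX7 under DMSO, 10 were higher and 0 lower (-0.10 to 0.36, median 0.24), and under Nutlin-3a 5 were higher and 0 lower (0.28 to 0.53, median 0.35), per the authors' deposited tables. Over all genes, the shares higher in the same order were 18.3%, 18.7%, 19.9% and 17.2%, and the shares lower 19.6%, 20.3%, 17.5% and 15.4%. The MT- genes come from shared polycistronic transcripts, so they are not independent measurements of a response. The 4 comparisons also share groups, so agreement across them is not 4 independent results.

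MT-ND1 and MT-ND3 of complex I and MT-CO3 of complex IV were among the 5 called under both treatments with siRFX7. MT-ND1 went from 80876 to 103760 normalised counts under DMSO and from 87770 to 126355 under Nutlin-3a, at 0.36 ± 0.12 and 0.53 ± 0.16, in the authors' deposited tables. MT-CO3 was at 0.24 ± 0.06 and 0.30 ± 0.10, MT-ND3 at 0.31 ± 0.06 and 0.36 ± 0.06, MT-ND5 at 0.28 ± 0.10 and 0.41 ± 0.14, and MT-ND4L at 0.24 ± 0.10 and 0.44 ± 0.13, in the authors' deposited tables. MT-CO1, the catalytic subunit of complex IV, was at 0.23 ± 0.06 and called under DMSO, and 0.31 ± 0.13 and not called under Nutlin-3a, per the authors' deposited tables. MT-CO2 was at 0.31 ± 0.09 (called) and 0.35 ± 0.15 (not called), MT-ND2 at 0.36 ± 0.06 and 0.39 ± 0.21, MT-ND4 at 0.33 ± 0.10 and 0.42 ± 0.20, and MT-ATP6 at 0.23 ± 0.09 and 0.28 ± 0.23, likewise in the authors' deposited tables. MT-CYB of complex III was at 0.13 ± 0.10 and 0.29 ± 0.16 and not called in either.

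With Nutlin-3a in siRFX7, MT-ATP8 had the largest value, 0.66 ± 0.13, from 13990 to 22150 normalised counts, in the authors' deposited table, and it was 0.30 ± 0.16 and not called in siControl. MT-ND5 was at 0.46 ± 0.06 and MT-CO3 at 0.28 ± 0.04 in siRFX7, against 0.33 ± 0.15 and 0.21 ± 0.11 in siControl, per the authors' deposited tables. MT-ND4L and MT-ND6 were not called in siRFX7, at 0.26 ± 0.14 and 0.53 ± 0.26. MT-ATP8 overlaps MT-ATP6, and MT-ND4L overlaps MT-ND4, on the same strand, so reads in the overlaps are uncertain. The library kit is stranded per the labels, but the strand setting of the counting is not given in the sources used here, so reads of MT-ND6 and of RNA from the opposite strand cannot be told apart. Of the 13, 11 have a pseudogene copy in the tables that can share reads.

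**Figure D5:**
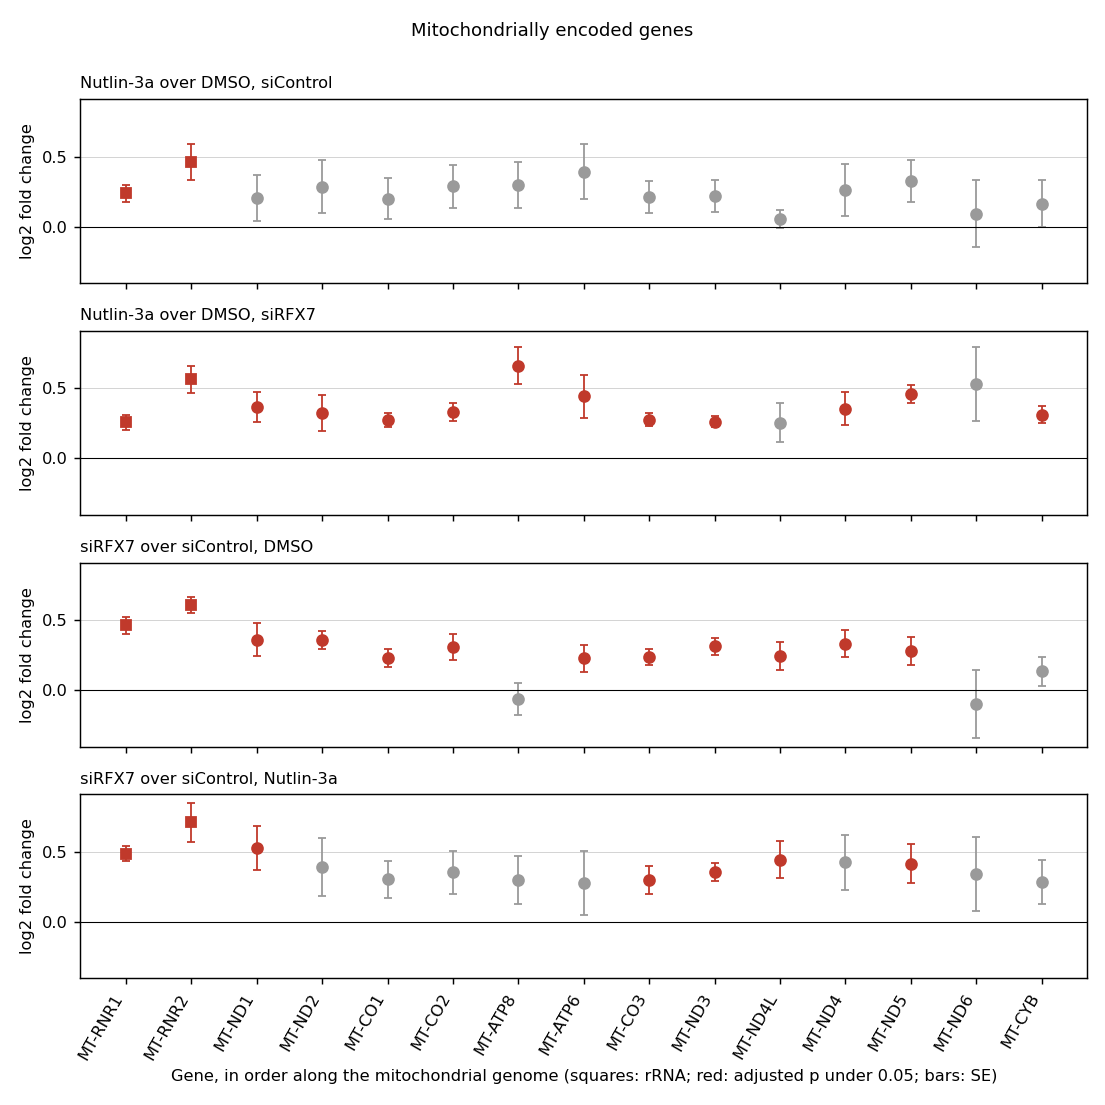
Log2 fold change with its SE (bars) for the 13 MT- protein-coding genes (circles) and both mitochondrial rRNAs (squares), in order along the mitochondrial genome, in each comparison from the authors' deposited tables; red marks an adjusted p under 0.05. Estimates are above 0 throughout except MT-ATP8 and MT-ND6 with siRFX7 under DMSO, and the bars are longer in the first and last panels.

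The precision of the MT- genes differed between tables. Their median SE was 0.162 for Nutlin-3a in siControl and 0.157 for siRFX7 under Nutlin-3a, against 0.106 for Nutlin-3a in siRFX7 and 0.0973 for siRFX7 under DMSO, in the authors' deposited tables. Nuclear protein-coding genes whose base mean reached 10000 had median SEs of 0.0387, 0.0403, 0.0398 and 0.0381 in the same order. The ratio of the medians was thus 4.19 and 3.89 in the 2 tables that hold the siControl Nutlin-3a libraries and 2.68 and 2.56 in the others. Whether 1 library of that group stands apart was not tested, since values of single libraries were not analysed here. The MT- genes held 3.98% of the summed implied level in siControl with DMSO and 4.87% with Nutlin-3a, and 4.62% and 6.04% in siRFX7, per the authors' deposited tables.

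The mitochondrial rRNAs, which are no members, moved the same way. MT-RNR1 was at 0.24 ± 0.06, 0.26 ± 0.06, 0.46 ± 0.06 and 0.49 ± 0.06 and MT-RNR2 at 0.46 ± 0.13, 0.56 ± 0.10, 0.61 ± 0.06 and 0.71 ± 0.14 in the authors' deposited tables (Nutlin-3a in siControl, in siRFX7, siRFX7 under DMSO, under Nutlin-3a), all called. The libraries were made from poly(A) RNA, per the labels, and in bulk samples fewer cells of a type and less RNA per cell cannot be told apart. Setting the genomes side by side, the MT- median exceeded the nuclear median by 0.22, 0.36, 0.31 and 0.43 in the same order, with no test, since genes of 1 genome are not replicates.

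Whether the Nutlin-3a response differed between the siRNAs was tested as the difference of the log2 fold changes in the authors' deposited tables, siRFX7 minus siControl, with a two-sided normal p and Benjamini-Hochberg adjustment over 21339 genes. Over all genes 200 were called (0.937%), and 0 of the 113 were. At an unadjusted p under 0.05 there were 11 nuclear and 0 MT- genes. SDHA had the lowest adjusted p of the 113, at 0.325, with a difference of -0.16 ± 0.06, computed from the authors' deposited tables. The MT- differences ran from 0.04 to 0.44 with a median of 0.09 and a median SE of 0.178, so the calls of 0 and 11 MT- genes in siControl and siRFX7 are not shown to differ.

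Of 74 other genes of the pathway listed with these complexes, more were lower than higher in each comparison. With Nutlin-3a in siControl, 5 were higher (6.85%) and 37 lower (50.7%) of 73, where 18.3% of all genes were higher and 19.6% lower. With Nutlin-3a in siRFX7, 7 were higher (9.72%) and 25 lower (34.7%) of 72, where 18.7% and 20.3% of all genes were. With siRFX7 under DMSO, 12 were higher (16.7%) and 31 lower (43.1%) of 72, where 19.9% and 17.5% of all genes were. With siRFX7 under Nutlin-3a, 12 were higher (16.7%) and 26 lower (36.1%) of 72, where 17.2% and 15.4% of all genes were, all per the authors' deposited tables. Over protein-coding genes whose base mean reached 100, the shares higher and lower in the same order were 25.6% and 32.7%, 26% and 32.5%, 28% and 22.4%, and 25.7% and 20.3%.

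Of the 27 genes for mitochondrial DNA and RNA, 1 was higher and 16 lower with Nutlin-3a in siControl (median -0.15), and 1 higher and 12 lower in siRFX7 (median -0.14), in the authors' deposited tables. With siRFX7 the counts were 6 higher and 7 lower under DMSO (median 0.02) and 7 higher and 7 lower under Nutlin-3a (median 0.04), per the authors' deposited tables. Over all genes, the shares higher in the same order were 18.3%, 18.7%, 19.9% and 17.2%, and the shares lower 19.6%, 20.3%, 17.5% and 15.4%. TFAM, which packages mitochondrial DNA and starts its transcription, was at -0.31 ± 0.05 and -0.30 ± 0.05 with Nutlin-3a and -0.26 ± 0.05 and -0.25 ± 0.05 with siRFX7, in the authors' deposited tables. POLRMT, the mitochondrial RNA polymerase, was at -0.26 ± 0.05 and -0.34 ± 0.05 with Nutlin-3a, and POLG, the mitochondrial DNA polymerase, at -0.32 ± 0.04 and -0.36 ± 0.05, in the authors' deposited tables.

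RRM2B, a p53-induced ribonucleotide reductase subunit that supplies nucleotides for mitochondrial DNA, rose by 2.07 ± 0.05 (siControl) and 2.33 ± 0.04 (siRFX7) with Nutlin-3a, per the authors' deposited tables, and was lower with siRFX7, at -0.74 ± 0.05 and -0.48 ± 0.05. Cytochrome c (CYCS) was at -0.34 ± 0.05 and -0.38 ± 0.05 with Nutlin-3a, and UQCC3, a complex III assembly factor, at -0.43 ± 0.07 and -0.53 ± 0.08 with siRFX7, in the authors' deposited tables. SDHAF4, a low gene with base means from 23.7 to 52.8, was higher with Nutlin-3a, at 0.50 ± 0.21 and 0.80 ± 0.31, and at -0.93 ± 0.28 and -0.61 ± 0.23 with siRFX7, in the authors' deposited tables. Of the 9 transcription regulators, 0 were higher and 6 lower with Nutlin-3a in siControl, and 1 higher and 5 lower in siRFX7. With siRFX7, 4 were higher and 2 lower under DMSO, and 3 higher and 2 lower under Nutlin-3a. In the same order, 18.3%, 18.7%, 19.9% and 17.2% of all genes were higher and 19.6%, 20.3%, 17.5% and 15.4% lower. PPRC1 and YY1 were lower with Nutlin-3a in siControl, at -0.44 ± 0.05 and -0.38 ± 0.04. These 2 were higher with siRFX7 under DMSO, at 0.28 ± 0.05 and 0.13 ± 0.04, in the authors' deposited tables. The difference of responses was called for 2 of the 72, RRM2B (higher in siRFX7) and MYC (lower).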

How the data were processed

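Poly(A) RNA of 16 U2OS libraries in 4 groups was measured. The submitters' processing notes name, with no role or order, bcl2fastq 2.19.1.403, Trimmomatic 0.39, FastQC 0.11.9, cutadapt 2.10, SAMtools 1.10, Picard, featureCounts 1.6.5, DESeq2 1.20.0 and build hg38; the aligner and annotation are not given in the sources used here. The authors deposited, per the file headers, DESeq2 tables with a base mean (a normalised signal per gene), a log2 fold change with its SE, the Wald score, and p-values with adjusted p-values. The deposited base mean is normalised signal and not a raw count, so the depth of each library is unknown.

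From these, group levels were computed from the base mean and fold change with equal group sizes, within 1 table at a time. The difference of responses used the sum of squared SEs, and its script was tested on simulated data. Adjusted p-values as deposited cover all genes of a table. Python 3.11.15 with pandas 2.3.3 and scipy 1.17.1 was used. Named genes were all MT- members, the 5 highest and 5 lowest called nuclear members per comparison with a base mean of at least 100, tissue isoforms, the highest member per complex, and other pathway genes called with a size of at least 0.5; all further members named, and TFAM, POLRMT, POLG, CYCS, PPRC1, YY1 and MYC, were chosen after their values were seen. The members and lists were chosen with earlier results of these data known. Promoter motif forms (11, in 6 families) were searched before the 3 marked forms were chosen. Of the 74 other pathway genes, FASTKD4 is another symbol of TBRG4 and SCO2 was in 1 table. Alternatives were a stricter adjusted p, a size threshold, a base mean filter and recentring.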

Additional observations from a re-analysis of the deposited data

How the results depend on the processing

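Counts of called members depended on the threshold, computed from the authors' deposited tables. With an adjusted p under 0.01 they were 16 (from 28) for Nutlin-3a in siControl, 23 (from 37) for Nutlin-3a in siRFX7 and 30 (from 46) for siRFX7 under Nutlin-3a. With a size of at least 0.25 as well they were 5, 16, 25 (from 56, siRFX7 under DMSO) and 23. For MT- genes, 1 instead of 0 was called for Nutlin-3a in siControl with the base mean filter of 100, and 1 when recentred on the protein-coding median. With the size threshold 6 instead of 10 were called for siRFX7 under DMSO, and 8 instead of 5 for siRFX7 under Nutlin-3a when recentred on the nuclear median. The size threshold and stricter p remove calls by construction; for the other settings the cause was not tested. Recentring on the protein-coding median turned the balance of calls with Nutlin-3a: from 13 higher and 15 lower to 19 and 10 over members in siControl (nuclear members 18 and 10), and from 12 and 14 to 17 and 10 over nuclear members in siRFX7. The robust SD was run for the difference of responses (0.949, still 0 called) and not for the 4 comparisons. No paired analysis was possible because the tables hold no values of single libraries, and leaving out a replicate was not run for the same reason.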
